A study of Mus musculus with 13 samples.

Results

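A set of 10 genes that neurons switch on with activity was followed in the CA1 region of the hippocampus, namely Nr4a1, Nr4a2, Nr4a3, Npas4, Klf10, Per1, Btg2, Ier2, Ier5 and Sik1. They were selected by symbol, as 10 of the 55291 symbols in the count tables, and the list was drawn up with fold changes of both lesions against control already known. Their levels against control, and whether an adjusted p fell under 0.05, are therefore given as a description and are no evidence about the set. RNA was sequenced from 13 CA1 regions of organotypic entorhino-hippocampal tissue cultures, which keep the layered circuit of the hippocampus and its cortical input alive in a dish. All cultures came from wildtype C57BL/6 mice, were prepared at postnatal day 4 to 5 and matured for at least 18 days in vitro. The control group held 5 non-lesioned cultures. In 4 cultures, a Schaffer collateral lesion (SCL) severed the axons from CA3 to CA1, and in another 4 an entorhinal cortex lesion (ECL) transected the perforant path. CA1 was isolated 3 days after either lesion, without the scar, and each library holds 1 CA1 region of 1 culture. The labels call the libraries biological replicates but do not tie them to animals, so the spread and the p-values below are those between cultures.

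The libraries held between 14371152 and 56786613 counts. The titles name CA1 as the tissue, whereas the extraction protocol in the labels describes dentate gyrus. Normalized counts per kb of exon, summed over 5 markers of CA1 pyramidal neurons, lay between 1020 and 2200 in the 13 libraries. The sum over 5 markers of dentate granule cells lay between 37.8 and 84.8, with Dsp, C1ql2 and Lct at 0 in 1 or 2 libraries each, and the sum over 5 CA3 markers lay between 300 and 1050. Makeup differed between libraries. Before scaling to exon length, ECL 1 had the lowest CA1 sum of the 13 (4543 normalized counts) and the highest CA3 sum (4060). Its Cpne4 (2304) and Npy2r (1182) were the highest, followed by SCL 4 (1886 and 1138), whereas its Bok, Iyd and Coch were not. The column headings, which give sex, put 3 female and 2 male cultures in the control group, 3 female and 1 male in the SCL group, and 1 female and 3 male in the ECL group.

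Genes of this kind are known as immediate early genes. Calcium that enters an active neuron starts kinases that act on transcription factors already present, such as CREB, which binds the cAMP response element (CRE), and SRF, which binds the CArG box. The transcripts appear without new protein synthesis and decay fast, so their level in the hippocampus follows recent activity, although growth factors and cell stress can induce many of them in neurons and glia as well. In bulk tissue, fewer cells of a type and less RNA per cell cannot be told apart.

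The promoters of several members share short elements. The genes were chosen as activity-induced, so CRE cores may come with that choice and are no independent finding. Shares over all promoter windows are given beside them, without matching for base composition. RefSeq promoter windows on GRCm38.p6 were matched by symbol for 7 of the 10 members, with 2 starts for Per1 and none for Klf10, Ier2 or Sik1. The 250 bases before each start were searched on both strands for the CRE (TGACGTCA) and its core TGACG, which is read as CGTCA on the other strand. The 3 NR4A genes each held 4 cores, Npas4 held 2, Btg2 held 1 full CRE, which counts as 2 overlapping cores, and each Per1 window held 1. Ier5 had none. Of all 32851 promoter windows of this length, 17.8% held at least 1 core, 3.9% at least 2 and 0.137% at least 4, while 1.55% held the full CRE. The NR4A response element (AAAGGTCA; 1.34% of windows) and the CArG box (1.47%) were not matched in any of the 8 windows, which says only that these letters are not in these 250 bases. An E-box (CACGTG; 6.02% of windows) lay 166 bases before the first Per1 start. A match to the letters is not evidence that a factor binds there. The windows of the 5 genes with at least 2 cores are shown 5′ to 3′ along the gene with the cores in capitals, whole for Nr4a1 (chr15:101266596-101266845, plus strand), Nr4a2 (chr2:57124004-57124253, minus strand) and Btg2 (chr1:134079156-134079405, minus strand). For Nr4a3 only the stretch outside annotated exons is given (chr4:48045055-48045152, plus strand, 3 of the 4 cores), and for Npas4, whose window lies in an annotated exon, the 30 bases around both cores (chr19:4990128-4990157, minus strand).
Nr4a1: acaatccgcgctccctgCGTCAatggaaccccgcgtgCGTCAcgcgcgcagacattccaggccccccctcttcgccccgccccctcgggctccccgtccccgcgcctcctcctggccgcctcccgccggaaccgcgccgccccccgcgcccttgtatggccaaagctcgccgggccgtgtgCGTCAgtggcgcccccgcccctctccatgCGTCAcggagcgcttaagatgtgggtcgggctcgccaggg
Nr4a2: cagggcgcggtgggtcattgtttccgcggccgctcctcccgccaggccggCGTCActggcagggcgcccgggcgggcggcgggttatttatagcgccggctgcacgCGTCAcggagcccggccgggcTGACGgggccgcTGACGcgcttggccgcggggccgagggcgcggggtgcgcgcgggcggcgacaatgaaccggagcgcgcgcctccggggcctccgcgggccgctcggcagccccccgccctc
Nr4a3: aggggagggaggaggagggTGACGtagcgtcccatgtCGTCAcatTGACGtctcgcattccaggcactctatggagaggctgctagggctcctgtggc
Npas4: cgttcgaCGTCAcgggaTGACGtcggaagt
Btg2: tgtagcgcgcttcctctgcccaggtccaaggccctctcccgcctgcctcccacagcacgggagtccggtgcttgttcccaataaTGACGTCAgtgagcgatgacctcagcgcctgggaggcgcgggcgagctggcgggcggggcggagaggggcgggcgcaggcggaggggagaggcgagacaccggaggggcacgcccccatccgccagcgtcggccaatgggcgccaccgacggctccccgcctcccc

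**Figure D1:**
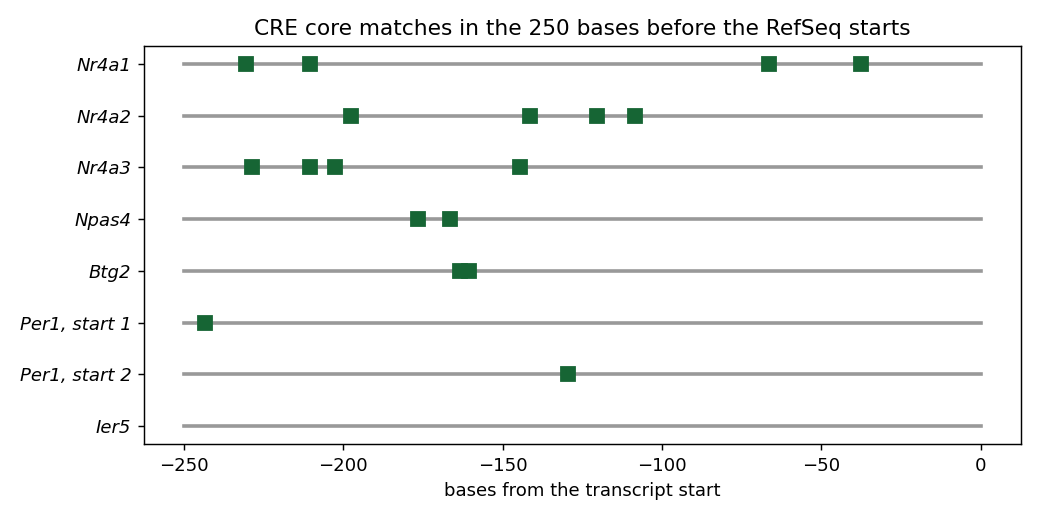
Position of CRE core matches (squares) in the 250 bases before each RefSeq start, with the distance from the start in bases on the x axis and 1 line per window. The cores of Nr4a2 lie between 200 and 111 bases before the start, those of Nr4a1 in a distal and a proximal pair, and the Ier5 line carries none.

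After either lesion, most of these genes were lower than in non-lesioned CA1, and none was called higher. Levels are given as normalized counts, that is counts scaled for library size and composition to a common total, and changes as log2 fold changes from edgeR's quasi-likelihood fit. Of the 10 members, 9 reached the minimum mean of 150 normalized counts and were fitted, and Sik1 fell under it. With a Benjamini-Hochberg adjusted p under 0.05 as the call, 6 of the 9 were called lower after SCL and 7 of the 9 after ECL, and 0 were called higher. Over all genes, 24.9% of 11438 were called after SCL (11.8% as lower) and 27.8% of 11212 after ECL (12.5% as lower). The median log2 fold change of the fitted members was -1.10 after SCL and -0.83 after ECL, against 0.01 and -0.01 over all genes. Since these comparisons were known when the genes were chosen, nothing is read from the counts. Both lesions share the 5 control libraries.

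**Figure D2:**
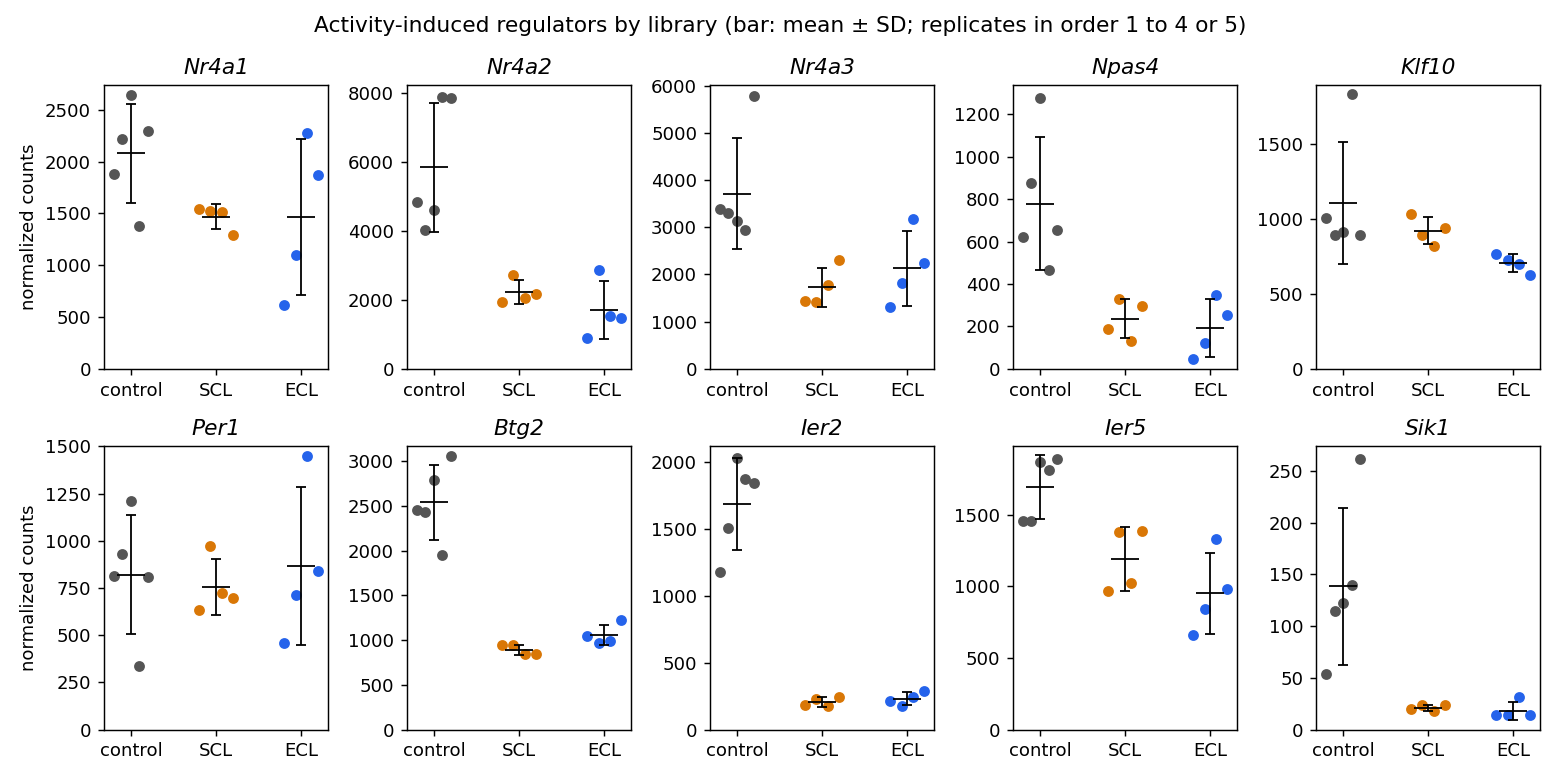
Normalized counts of the 10 members in each library (y axis, linear, from 0), by group; points are libraries in replicate order and bars are the mean ± SD (n = 5 control, 4 SCL, 4 ECL). Btg2, Ier2, Ier5, Npas4, Nr4a2 and Sik1 have no lesioned library within the control range after either lesion, whereas the groups overlap for Klf10 after SCL and for Nr4a1 and Per1 after both.

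The NR4A genes encode orphan nuclear receptors that bind DNA as transcription factors without a classical ligand and that take part in memory formation in the hippocampus. Nr4a2 (Nurr1; chr2:57106830-57124003, minus strand) had 4827, 4030, 4607, 7871 and 7829 normalized counts in the 5 controls, 1941, 2733, 2062 and 2162 after SCL, and 907.9, 2877, 1532 and 1486 after ECL. Every lesioned library lay below every control, and ECL 1 was the lowest of all 13. In the fit the log2 fold change was -1.39 (SE 0.21) after SCL and -1.77 (SE 0.30) after ECL, that is 2.62-fold and 3.41-fold lower. Nr4a3 (NOR-1; chr4:48045153-48086447, plus strand) had 3378, 3300, 3127, 2946 and 5788 in the controls, 1439, 1408, 1775 and 2297 after SCL, and 1307, 1811, 3183 and 2237 after ECL. The SCL libraries stayed below all controls, but ECL 3 lay inside the control range. For Nr4a3 the fitted change on the log2 scale was -1.10 (SE 0.22) after SCL and -0.79 (SE 0.25) after ECL, and the ECL call was lost without control 5 (-0.58), which held the highest level, and without ECL 1 (-0.60), ECL 2 (-0.72) or ECL 4 (-0.81).

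Nr4a1 (Nur77; chr15:101254269-101274795, plus strand) had the smallest fitted changes of the 3 receptors. It had 1878, 2219, 2638, 1375 and 2291 normalized counts in the controls, 1540, 1527, 1516 and 1290 after SCL, and 614.1, 1094, 2276 and 1873 after ECL. Control 4 lay below 3 of the 4 SCL libraries, and the ECL libraries ran from far below the lowest control to within the control range. A log2 fold change of -0.50 was fitted both after SCL (SE 0.18) and after ECL (SE 0.31), and edgeR called neither. After SCL the call depended on the fit: DESeq2 called Nr4a1 (-0.51), edgeR called it with DESeq2's size factors (-0.51) and without control 4 (-0.63), and the other 16 of the 19 alternatives did not. After ECL no alternative called it, and the value was -0.23 without ECL 1 and -0.76 with a sex term.

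Summed per kb of exon, NR4A transcripts ran from 2176 to 3548 normalized counts per kb in the controls. The SCL libraries held 1157 to 1344 and the ECL libraries 616.9 to 1558, so neither lesion overlapped with control. The makeup of that sum varied between libraries. Nr4a2 made up 45.6% to 68.7% of it in the controls (mean 53.6% ± 9.18 SD, n = 5), 41.1% to 50.1% after SCL (43.5% ± 4.4, n = 4) and 24.2% to 53.6% after ECL (35.7% ± 12.9, n = 4). The Nr4a1 share was 13.9% to 31.2% in the controls, 28.6% to 37.9% after SCL and 23.6% to 41.9% after ECL. In ECL 3 and ECL 4, Nr4a1 and not Nr4a2 was the largest of the 3 parts. The shares of all 3 groups overlap.

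**Figure D3:**
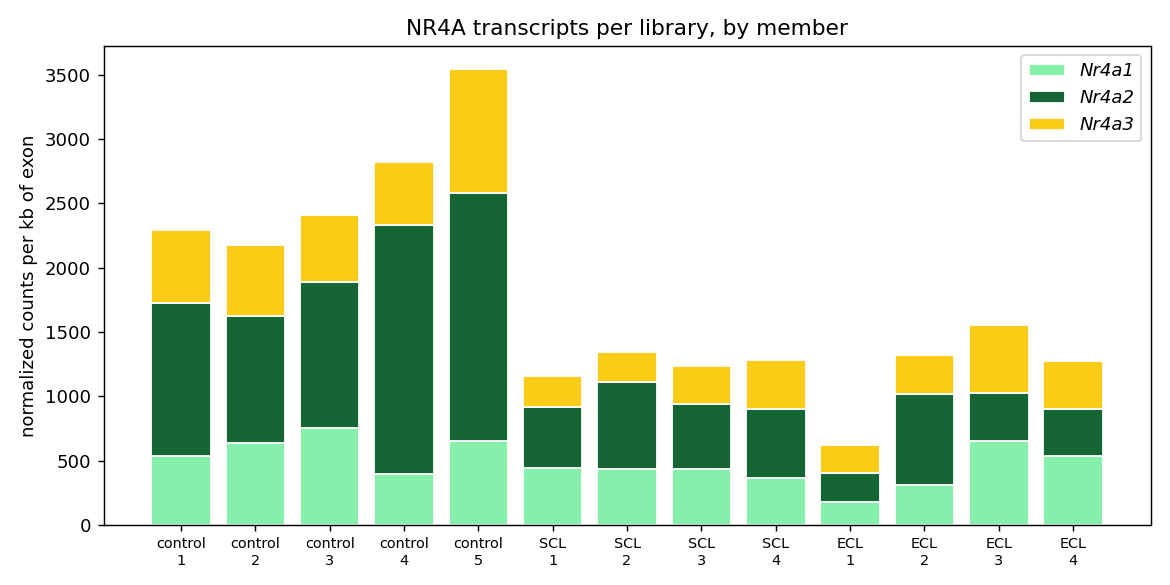
NR4A transcripts in each library as stacked normalized counts per kb of exon (y axis, linear, from 0), divided into Nr4a1, Nr4a2 and Nr4a3. The 5 control bars stand above 2176 and the 8 lesioned bars below 1558, and Nr4a2 (dark green) is the part that shrinks most.

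Npas4 encodes a transcription factor of the bHLH-PAS family that is induced almost only in neurons and by calcium entry, and that controls inhibitory synapses onto pyramidal cells. Npas4 (chr19:4984355-4990316, minus strand) had 621.6, 875.7, 1276, 464.3 and 653.2 normalized counts in the controls, 188.5, 329.6, 131.1 and 295.3 after SCL, and 45.61, 122.4, 349.1 and 253.7 after ECL. All 8 lesioned libraries lay below the lowest control, but they differed widely among themselves, with ECL 1 lowest and ECL 3 highest. Against control this gave a log2 fold change of -1.73 (SE 0.33) after SCL and -2.02 (SE 0.47) after ECL.

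Klf10 (chr15:38291463-38300706, minus strand) encodes a zinc-finger repressor induced by TGF-beta. It had 1003, 888.1, 909.4, 1830 and 889.9 normalized counts in the controls, 1031, 891.8, 815.5 and 935.9 after SCL, and 764.7, 726.4, 700.5 and 622.1 after ECL. Control 4 stood far above the other controls, and only the ECL libraries were all below them. Its log2 fold change was -0.26 (SE 0.21) after SCL and -0.64 (SE 0.22) after ECL. Without control 4 the ECL value was -0.39 and no longer called, and the call was also lost without control 1 or any single ECL library. In all, the ECL call was lost in 12 of 19 alternatives, among them the sex term (-0.54), both replicate blocks (-0.64 and -0.57) and edgeR's filter on low counts (-0.57), while DESeq2 kept it. Per1 (chr11:69095217-69109960, plus strand), a repressor of the circadian clock that CREB also induces, had 813, 932.6, 1213, 337.3 and 809.4 in the controls, 631.8, 972.1, 722 and 699.2 after SCL, and 460.8, 715.2, 1448 and 839 after ECL. The groups overlapped throughout, with the lowest library a control and the highest an ECL library. For Per1 the log2 fold change was -0.12 (SE 0.28) after SCL and 0.08 (SE 0.34) after ECL, and both changed sign among the alternatives, from -0.33 to 0.08 and from -0.28 to 0.30.

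Ier2 had the largest fold change of the fitted members. It encodes a small nuclear protein of the immediate early response (chr8:84661331-84662852, minus strand). Ier2 had 1178, 1509, 2031, 1878 and 1846 normalized counts in the controls, 181.5, 232.6, 174.4 and 247.9 after SCL, and 215.3, 175.5, 245.5 and 292.6 after ECL. The highest lesioned library, at 292.6, stood far below the lowest control, at 1178. On the log2 scale Ier2 changed by -3.02 (SE 0.20) after SCL and -2.85 (SE 0.21) after ECL, that is 8.09-fold and 7.23-fold lower.

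Ier5 and Btg2 encode regulators of the stress response and of mRNA decay. Ier5 (chr1:155096361-155099636, minus strand), which takes part in heat shock factor signalling, had 1453, 1453, 1866, 1813 and 1890 normalized counts in the controls, 968.7, 1379, 1026 and 1389 after SCL, and 658.6, 842.8, 1327 and 980.2 after ECL. Both lesioned groups lay below the controls, by a narrow gap. Its log2 fold change was -0.51 (SE 0.16) after SCL and -0.83 (SE 0.19) after ECL, and the SCL call was lost in 10 of 19 alternatives, among them the fits without control 3 (-0.47), control 5 (-0.47), SCL 1 (-0.42) or SCL 3 (-0.44). Btg2 (chr1:134075170-134079120, minus strand) restrains cell division and brings the CCR4-NOT deadenylase to mRNAs. It had 2452, 2435, 2793, 1953 and 3061 in the controls, 942.5, 941, 846.8 and 841.2 after SCL, and 1047, 965.2, 988.8 and 1220 after ECL. Lesioned libraries were tightly grouped, all SCL values were below all ECL values, and all ECL values were below all controls. In both comparisons the SE was small, with a log2 fold change of -1.51 (SE 0.15) after SCL and -1.26 (SE 0.16) after ECL.

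Sik1 (chr17:31844250-31855804, minus strand) encodes salt-inducible kinase 1, which is induced through CREB and then keeps CRTC, the coactivators of CREB, out of the nucleus. Its normalized counts were 53.76, 115, 122.2, 139.8 and 261.9 in the controls, 20.07, 23.83, 17.56 and 23.68 after SCL, and 13.79, 14.28, 31.53 and 14.32 after ECL. All lesioned libraries were below the lowest control, at levels under the minimum mean of the fit. With edgeR's own filter on low counts in its place, the log2 fold change was -2.64 (SE 0.44) after SCL and -2.85 (SE 0.48) after ECL.

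Counted over all 10 members, 7 lay below control without overlap after SCL (Btg2, Ier2, Ier5, Npas4, Nr4a2, Nr4a3 and Sik1) and 7 after ECL (with Klf10 in place of Nr4a3), and none lay above control. Over all genes fitted, 23.6% did not overlap after SCL (11.5% lower, 12.1% higher) and 25.0% after ECL (12.2% lower, 12.8% higher). The log2 fold changes of Btg2, Ier2, Npas4 and Nr4a2 stayed past the threshold against control in all 19 alternatives and for both lesions, as did Nr4a3 for SCL and Ier5 for ECL. This describes the fits and is no independent evidence, since the list was drawn up with these changes known. When the scaling factors were computed over all symbols, the median log2 fold change of all genes moved to 0.21 for SCL and 0.18 for ECL, the share of higher genes among those called went from 52.8% to 80.8% and from 54.8% to 77.8%, and 5 members were called lower in each comparison. Ier5 after SCL and Klf10 and Nr4a3 after ECL lost their call there.

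**Figure D4:**
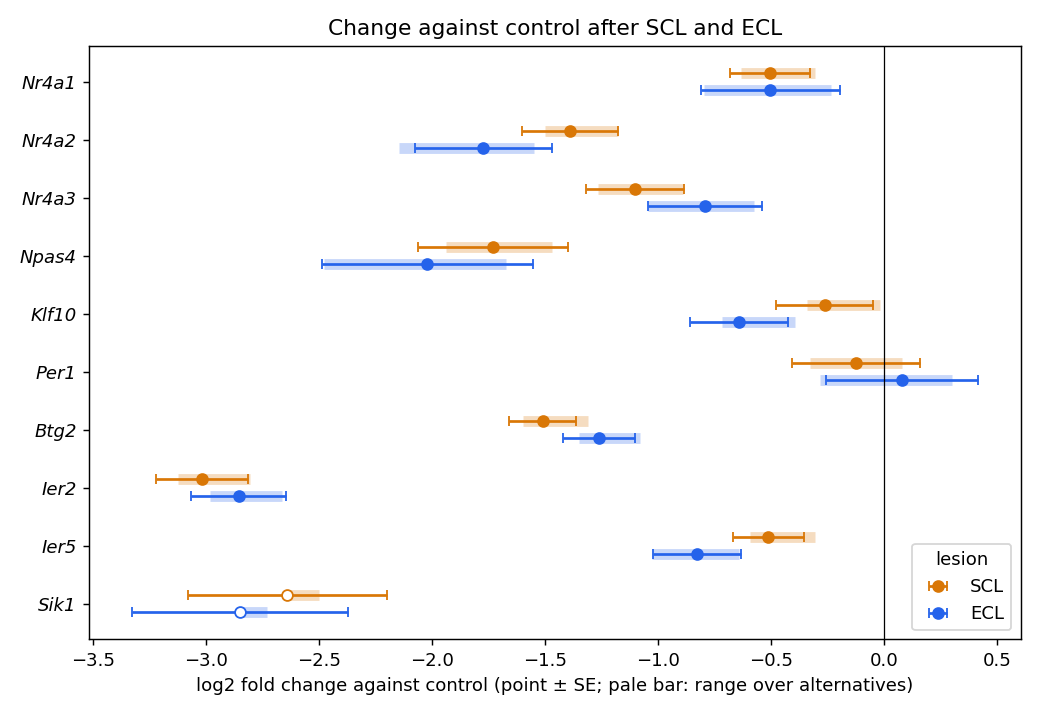
Log2 fold change against control after SCL (orange) and ECL (blue), as the estimate ± SE, with the range over the alternatives as a pale bar. Open symbols mark Sik1, fitted with edgeR's filter on low counts; Ier2 lies farthest below 0, and the bars of Per1 cross 0.

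Whether the 10 genes differ between the lesions was tested directly. That comparison was not itself used to list the genes, but the changes of both lesions against the same controls were known. The selection may therefore bear on this test too. With edgeR's quasi-likelihood test, 0 of 9 members differed between ECL and SCL, and 1, Klf10, had an unadjusted p under 0.05. DESeq2 called 0 of the 9 as well. Over all 12232 genes, 0 (0%) were called by edgeR, 897 had an unadjusted p under 0.05 and DESeq2 called 62. The Klf10 libraries did not overlap and were lower after ECL, with a log2 difference of -0.38 (SE 0.13, adjusted p = 0.578, edgeR). Those of Btg2 did not overlap either and were higher after ECL, by 0.25 (SE 0.13, adjusted p = 0.707). Over all genes, 3.83% did not overlap between the lesions, 2.27% as lower and 1.55% as higher after ECL.

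The intervals show how large a difference remains possible. For Ier2 the estimate ± 2 SE of the log2 difference between ECL and SCL ran from -0.26 to 0.59 (adjusted p = 0.913), and for Btg2 from -0.00 to 0.50. For Nr4a2 it ran from -0.95 to 0.20 (estimate -0.38, adjusted p = 0.815), for Nr4a3 from -0.20 to 0.83 (0.31, adjusted p = 0.840) and for Nr4a1 from -0.64 to 0.65 (0.01, adjusted p = 0.999). The interval was widest for Npas4, from -1.32 to 0.74 (-0.29, adjusted p = 0.935). Ier5 (-0.31, SE 0.22, adjusted p = 0.796) and Per1 (0.20, SE 0.29, adjusted p = 0.925) differed by less than 2 SE, and Sik1, with edgeR's filter, by -0.21 (SE 0.39, adjusted p = 0.942). These values do not show that the lesions acted alike on the genes. Sex is spread unevenly over the lesions, and with a sex term 0 of the 9 members were called as well. That term rests on few libraries, since the ECL group held 1 female culture, ECL 1, and the SCL group 1 male culture. Several differences between ECL and SCL nonetheless moved with that term, to -1.24 for Npas4, -0.72 for Nr4a2, -0.59 for Ier5 and -0.44 for Nr4a1. Those of Nr4a3 (-0.08) and Per1 (-0.12) turned their sign, that of Ier2 shrank to 0.04, and Btg2 (0.27) and Klf10 (-0.35) moved little. Without ECL 1 and without a sex term, the difference was 0.05 for Npas4, -0.17 for Nr4a2, -0.17 for Ier5 and 0.26 for Nr4a1. The part of sex and that of the single library ECL 1 were not told apart.

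The libraries within a group differed in a way that ran through several members. ECL 1, the deepest ECL library and the only female one, was the lowest of its group for 7 of the 10 members (Ier5, Npas4, Nr4a1, Nr4a2, Nr4a3, Per1 and Sik1), and ECL 3 was the highest for 6. Over all genes tested between the lesions, ECL 1 was the lowest of the 4 in 30.9% and ECL 3 the highest in 30.0%. Btg2 and Ier2 were lowest in ECL 2 and highest in ECL 4 instead, and their ECL libraries stood close together. Among the controls, control 4 was the lowest for 5 of the 10 members, and for 29.8% of all genes tested between the lesions. It was the highest for Klf10 and Nr4a2. The coefficient of variation was larger after ECL than after SCL for 9 of the 10 members, Klf10 being the exception, and for 54.5% of all genes. In the controls it was larger than after SCL for 9 of the 10 members as well, and for 65.2% of all genes. It was 23.0% in control, 51.2% after ECL and 8.14% after SCL for Nr4a1. For Npas4 it was 40.4%, 70.1% and 39.1%, and for Btg2 16.5%, 10.9% and 6.33%. ECL 1 also had the lowest CA1 and the highest CA3 marker sum of the 13 libraries. The part of depth, sex or tissue makeup in this was not tested.

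**Figure D5:**
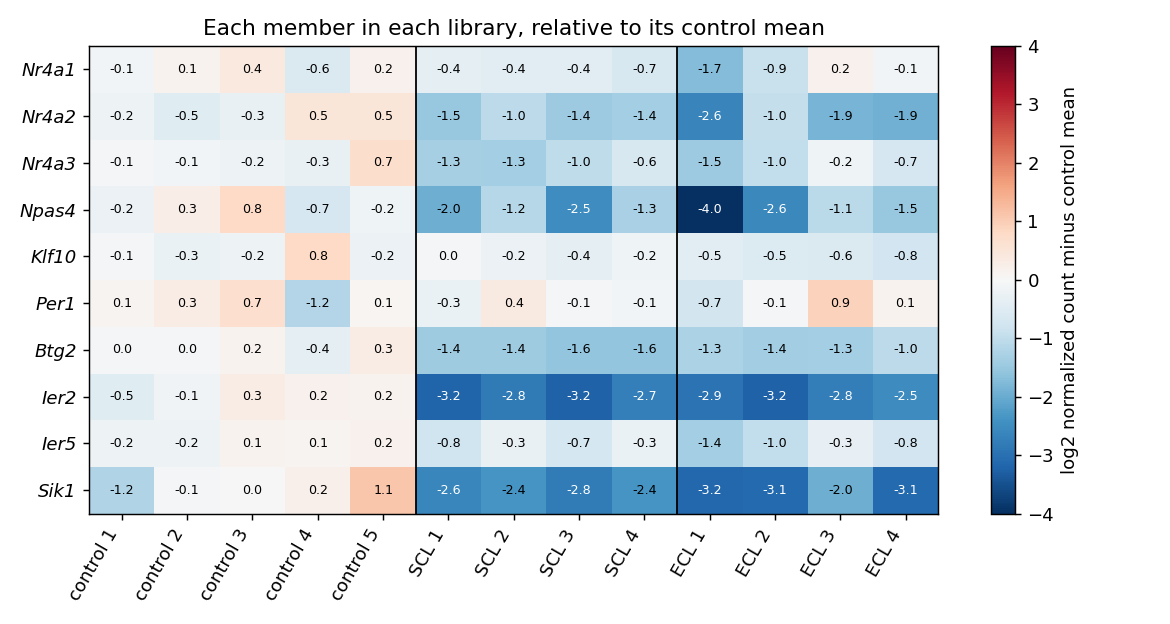
Log2 normalized count of each member in each library minus the gene's mean over the 5 controls (colour and printed value, blue for lower, red for higher). The column of ECL 1 is the darkest for Npas4 and the NR4A genes, while the rows of Btg2 and Ier2 are even across the 8 lesioned libraries.

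Per kb of exon, the order of the members differed between control and lesioned CA1. Nr4a2 was highest in every group, at 1437 ± 459.3 (SD) normalized counts per kb in the controls, 548 ± 86.39 after SCL and 419 ± 205.5 after ECL. Ier2 ranked next in the controls, at 1109 ± 225.6, and its range overlapped with that of Nr4a2 and of Btg2 (925.6 ± 152.4). It then fell to rank 7 after SCL (137.4 ± 24.07) and rank 8 after ECL (152.6 ± 32.48). Nr4a1 went from rank 5 in the controls (592.8 ± 136.2) to rank 2 after SCL (418.4 ± 34.04) and after ECL (417.3 ± 213.7), where its mean differed from that of Nr4a2 by far less than their spread. Npas4 (188.1 ± 76.08 in the controls) and Per1 (145.8 ± 56.15) stood low and overlapped there, and Sik1 was lowest in every group (26.99 ± 14.85 in the controls). None of the members shares exon bases with another annotated gene.

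Partners and relatives of the members were followed as lists chosen by family. Of 111 such genes, 99 were fitted for SCL, with 27 called lower and 3 higher, and 97 for ECL, with 36 called lower and 4 higher. Over all genes, 11.8% were called lower and 13.1% higher after SCL, and 12.5% and 15.2% after ECL. The median log2 fold change of the relatives was -0.33 and -0.37. Counts of single lists rest on few genes and are given as a description. Between the lesions, 0 of 101 were called by edgeR, 6 had an unadjusted p under 0.05, and DESeq2 called 0 too. The list with the most lower genes was that of other activity-induced genes, of which 14 of 28 were called lower after SCL (median -0.66) and 17 of 27 after ECL (median -0.81), with 0 higher. Several of that list had been seen in earlier results of these data, so it is not independent evidence. Its lowest adjusted p-values belonged to Egr2, which changed by -4.98 (SE 0.37, adjusted p = 1.47e-05, edgeR) after SCL on the log2 scale and by -4.31 (SE 0.33, adjusted p = 1.28e-05) after ECL, and to Egr1, which changed by -2.26 (SE 0.19) and -2.08 (SE 0.18).

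Among the partners, 1 of the 2 fitted retinoid X receptors, which pair with NR4A1 and NR4A2, was called lower after ECL. This was Rxra, which changed by -0.79 (SE 0.23), from 399.8 ± 92.41 to 229.9 ± 39.78 normalized counts, a call lost in 6 of 18 alternatives. Of the 8 genes of the bHLH-PAS list, 2 fell after SCL and 4 after ECL. Npas3, which acts in neuronal development, went from 7236 ± 3426 in control to 3434 ± 338.2 after SCL (-1.07, SE 0.27) and 3222 ± 454.6 after ECL (-1.16, SE 0.28). Epas1, a hypoxia factor, changed by -0.86 (SE 0.18) after ECL and by -0.61 (SE 0.20) after SCL, where the call held in 9 of 19 alternatives.

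The anti-proliferative relatives Tob1 and Tob2 of Btg2 also fell. Tob1 changed by -1.04 (SE 0.17) after SCL and by -1.42 (SE 0.17) after ECL, from 2006 ± 374.7 to 976.8 ± 175.9 and 746.7 ± 88.67 normalized counts, and Tob2 by -0.78 (SE 0.21; called in 16 of 19 alternatives) and -0.85 (SE 0.21). The deadenylase subunit Cnot8 rose by 0.97 (SE 0.23) and 0.98 (SE 0.21), and the other 10 of the 13 fitted genes of that list were not called after either lesion. Around Sik1, Sik2 fell by 1.21 (SE 0.22) after SCL, with 15% of its exon bases shared with Ppp2r1b on the opposite strand. Sik3 rose by 0.35 (SE 0.12) and 0.42 (SE 0.15), a call that held in 7 and 8 of 19 alternatives. Of the acetyltransferases that CREB recruits, Ep300 was lower after both lesions, at -1.19 (SE 0.16) after SCL and -0.999 (SE 0.19) after ECL. Crebbp was called lower only after ECL, at -0.78 (SE 0.19). Of the 14 fitted genes of this list, which also holds CRTC and CREB genes, 2 were called lower and 1 higher after SCL. After ECL 3 were called lower and 1 higher. Over all genes, 11.8% and 12.5% were called lower after SCL and ECL, and 13.1% and 15.2% higher.

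Of the Kruppel-like factors related to Klf10, 2 of 10 fell after SCL and 1 of 9 after ECL, where 11.8% and 12.5% of all genes were called lower. These were Klf7, at -0.80 (SE 0.19) and -0.79 (SE 0.20), which shares 39.4% of its exon bases with 2 overlapping genes, and Klf4 after SCL, at -1.07 (SE 0.28). Klf4 was under the minimum mean in the ECL fit, where its libraries held 49.85 to 95.16 normalized counts, all below the controls at 155.5 to 283.2. The only fitted relative of the IER genes, Ier3, changed by -1.15 (SE 0.25) after SCL and by -0.77 (SE 0.25) after ECL, the latter call holding in 10 of 19 alternatives. Of the SRF, ELK and MEF2 factors, Mef2d rose from 125.4 ± 43.06 to 411.3 ± 162.1 after SCL (1.71, SE 0.32) and to 554.7 ± 68.7 after ECL (2.15, SE 0.25). Elk3 (-0.75, SE 0.24) and Mef2a (-0.41, SE 0.14) fell after ECL, calls that held in 7 of 18 and 8 of 19 alternatives.

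Most clock genes, the family of Per1, were not called after either lesion. After SCL 4 of 19 fell and 0 rose, and after ECL 6 fell and 1 rose, with medians of -0.26 and -0.29. Over all genes, 11.8% and 12.5% were called lower. Bhlhe41, a repressor of clock transcription, went from 12690 ± 5745 normalized counts to 4406 ± 1486 after SCL (-1.52, SE 0.33) and 2722 ± 513.5 after ECL (-2.21, SE 0.29), with 19% of its exon bases shared with an antisense gene. Per3 fell by 1.47 (SE 0.30) after ECL, Rora and Nfil3 changed by -0.61 (SE 0.13) and -0.86 (SE 0.18) after SCL, and Ciart, a repressor that acts with the PER proteins, rose by 0.79 (SE 0.21) after ECL. For Per1 itself neither comparison was called.

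For the members with a log2 fold change of at least 1 in size after both lesions, the 2 most alike genes were sought among 11147 others, as the smallest root mean square difference between log2 levels centred on the control mean over the 13 libraries. For Btg2 they were Dusp1, a MAP kinase phosphatase (difference 0.27), and Dlx1, a transcription factor of interneurons (0.30). For Ier2 they were the predicted gene Gm47088 (0.30) and Arl4d, a small GTPase (0.42). For Nr4a2 they were Tox (0.32) and Magi1 (0.37), and for Npas4, whose libraries varied most, Cebpb (0.53) and Fosb (0.59). Dusp1 changed by -1.80 after SCL and by -1.52 after ECL, and Tox by -1.17 and -1.53.

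Markers of other cells moved between the groups too. The 7 microglia markers summed to between 6677 and 7562 normalized counts in the controls, 13810 to 23890 after SCL and 13900 to 18600 after ECL, with 7 of 7 called higher after SCL and 4 of 7 after ECL, so that both lesioned groups stood above the controls. The 7 pyramidal and general neuron markers summed to 82010 to 102400 in the controls, 69650 to 97970 after SCL and 71830 to 105900 after ECL, with Rbfox3 at -0.45 (SE 0.14) and -0.65 (SE 0.18) on the log2 scale and Map2 at -0.46 (SE 0.16) after ECL. The 5 CA1 markers overlapped between all groups (5213 to 7036, 5455 to 6233 and 4543 to 9529), with Pou3f1 at -0.82 (SE 0.17) after SCL. So did the 5 CA3 markers (1100 to 2409, 987.9 to 3450 and 1145 to 4060), of which 3 were fitted and 0 called after either lesion. The interneuron sums overlapped (28590 to 45760, 35320 to 44670 and 30130 to 48150), with Gad1 at -0.41 (SE 0.13) and -0.62 (SE 0.17) and Slc32a1 at -1.12 (SE 0.30) after ECL. Gad2 (-0.12), Vip (-0.04), Pvalb (0.15) and Sst (0.31) were not called after ECL. Among the 6 astrocyte markers, 3 were called higher after SCL and 2 after ECL, with Gfap at 0.85 (SE 0.14) and 0.73 (SE 0.14). Their median log2 fold change was 0.33 and -0.14. After ECL, Gja1 (-0.80), Slc1a3 (-0.42) and Slc1a2 (-0.39) were lower but not called. The 6 astrocyte markers and the 7 oligodendrocyte markers overlapped in their sums. The 6 endothelial markers did not, at 508.4 to 843.9 in the controls, 256.6 to 394.2 after SCL and 248.2 to 377.5 after ECL, with Cldn5 and Cdh5 at 0 in 2 libraries each. Most of that sum was Flt1 (489.4 ± 84.52 in control), the only 1 of the 6 that was fitted, and it was called lower after both lesions. Per kb of exon the endothelial sum was 45.7 to 88.8 in the controls, 20.6 to 37.6 after SCL and 27.4 to 46.4 after ECL. On that scale the ECL group overlapped with control. The part of these cells in the levels of the 10 genes was not tested.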

How the data were processed

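Polyadenylated RNA of 13 CA1 regions was amplified with a low-input kit and sequenced in pairs. The authors trimmed reads with cutadapt 3.5, aligned them to mm10 with STAR 2.7.8a and counted them with featureCounts 2.0.1 on GENCODE M25 without strand, and deposited raw counts per symbol. Between 63% and 74.3% of counts from 1 to 20 were even, so a fit on halved counts was added.

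Each comparison was fitted separately with edgeR 4.0.16 in R 4.3.3 (quasi-likelihood test, two-sided, Benjamini-Hochberg adjusted over all genes fitted, threshold 0.05). Genes needed a mean normalized count of at least 150, and TMM factors were computed over them. SE is the absolute log2 fold change over the square root of F. The code was tested on simulated data. Levels per library used TMM over all 13 libraries and, per kb, GENCODE M21 exon lengths on GRCm38, which also gave the coordinates. Promoters came from RefSeq.

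The members and the lists of relatives and markers were chosen with earlier results of these data known. Named were the members, per list, comparison and direction up to 2 called relatives with the smallest adjusted p, the 2 genes most like each member with log2 fold changes of at least 1 in size, and markers. Alternatives were DESeq2 1.42.0, other scalings and filters, halved counts, a sex term, replicate blocks, 1 fit of all libraries and leaving out each library. No batch or date is given in the sources used here. No library was left out.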

Additional observations from a re-analysis of the deposited data

Results flagged for a closer look

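In 4 of the 30 groups of libraries checked, 3 groups for each of the 10 members, a single library stood apart from the rest of its group by Dixon's test. Chance alone marks about 1 in 20 groups where values are independent and normally spread. The check used normalized counts without logs, and members can move together within a library, so that rate is only a rough guide here. Klf10 had 1830 normalized counts in control 4, where the nearest control had 1003, and the call of Klf10 after ECL was lost without that library. Nr4a3 had 5788 in control 5, where the nearest control had 3378, and its call after ECL was lost without it. Nr4a1 had 1290 in SCL 4, below 1516 in the nearest of 3 SCL libraries that lay close together. Sik1 had 31.53 in ECL 3, above 14.32 in the nearest ECL library, and still below the lowest control.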

How the results depend on the processing

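The number of members called stayed between 5 and 7 for each lesion against control and at 0 between the lesions in every alternative run, and no call turned its direction. Over all genes, leaving out single libraries gave 1679 to 2797 calls for SCL, the lowest without SCL 3, and 2088 to 3062 for ECL. Between the lesions it gave 0 to 54, with 54 without SCL 3 and 2 without ECL 4. Without a filter on low counts the calls were 5390 for SCL, 8034 for ECL and 217 between the lesions, 4 of them relatives of the members. Between the lesions DESeq2 called 62 genes, and a fit of all 13 libraries and a fit with a sex term called 1 each. Whether the replicate numbers pair the samples cannot be settled with so few libraries. Correlations of same-numbered deviations ran from -0.15 to 0.53. The same number was the best match for ECL 1 with SCL 1 (0.53) and ECL 3 with control 3 (0.40), and in the other cases it was not. With the replicate number as a block, 2342 genes were called for SCL, 2663 for ECL and 0 between the lesions, and 5, 6 and 0 members. With heading numbers as the block instead, chosen after seeing the data, 1824 genes were called for SCL. Among the log2 fold changes of single members and relatives and the other values not named here, 3780 kept their side of the threshold, 298 lost it and 40 passed it. Low levels limit Sik1, which had 13.79 normalized counts in its lowest library.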
